A study of Mus musculus with 503 samples.

Results

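Among perivascular cells of the injured mouse spinal cord that did not carry the GLAST lineage reporter, cycling cells were set beside non-cycling cells. The cells came from GLAST-CreERT2;R26R-tdTomato;Pdgfrb-eGFP mice, in which EGFP marks cells with an active Pdgfrb gene (pericytes, vascular smooth muscle cells and fibroblasts) and tdTomato is switched on permanently, upon tamoxifen, in cells that express GLAST (Slc1a3). The members were tdTomato-EGFP+ cells labelled 3 days after a complete crush of the spinal cord, sorted from the cord after its outer meninges were removed, sequenced singly with Smart-seq3 and holding at least 20000 counts. Of the 503 labelled cells of the series, 31 such cells were cycling, 67 were not and 6 lay between, on 2 plates, 211 and 215, and 1 further cell of this label had fewer counts. The series text gives 5 days for the injury, and the cell labels, used here, 3 days. The other 3 groups were tdTomato+EGFP+ cells of the same lesions and the tdTomato- and tdTomato+ cells of uninjured cords, from mice of the same genotype, all labelled female. The study included adult mice, gave tamoxifen before injury and used the lineage label to ask which perivascular cells form the fibrotic scar. No label says which animal a cell came from, so each group is 1 sample, cells are not replicates, and the values below carry no test. A tdTomato- cell can also be a cell of the GLAST lineage that was not recombined.

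A cell that divides passes from G1 into S phase, where the MCM helicase and its loading factors license and open origins and the polymerases copy DNA, and then through G2 into mitosis, where kinases of the CDK1, PLK1 and Aurora families, motor proteins and the kinetochore separate the chromosomes. Genes for S phase are driven largely by E2F factors, and genes for mitosis by the MuvB complex with B-MYB and FOXM1. Pericytes, cells that ensheath capillaries, are marked by the potassium channel subunit gene Kcnj8, whereas Col1a1, which encodes a chain of type I collagen, marks perivascular fibroblasts. Cells of both types can divide after injury of the central nervous system.

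The 2 classes were chosen by measured values, the summed level of 5 genes in CPM, that is counts per 1000000 counts of the cell without spike-ins. These genes were Mki67 (the Ki-67 antigen), Top2a (a topoisomerase needed to part chromosomes), Ccnb1 (cyclin B1), Cdk1 (its kinase) and Birc5 (survivin). A sum of 200 CPM or more made a cell cycling, a sum under 50 CPM non-cycling, and the cells between these limits were left out of the comparison. By this rule 31 cells were cycling, 19 on plate 211 and 12 on plate 215. Another 67 were non-cycling, 38 and 29 on these plates, and 6 fell between, 1 and 5. The highest non-cycling cell stood at 46.6 CPM, the 6 cells between at 70.4 to 165 CPM, and the lowest cycling cell at 272 CPM, so no cell lay close to the upper limit. All 5 genes had counts in 19 of the 31 cycling cells, 4 of them in 9 cells, 3 in 2 cells and 2 in 1 cell. None of the 5 had a count in 47 of the 67 non-cycling cells. The median levels in cycling cells were 102.9 CPM for Mki67, 166 for Top2a, 226 for Ccnb1, 195 for Cdk1 and 187 for Birc5, and 0 CPM for each in non-cycling cells. These values chose the classes and are a description only. Every other gene was measured in the same cells, so the differences below also describe how the 2 classes were composed.

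**Figure D1:**
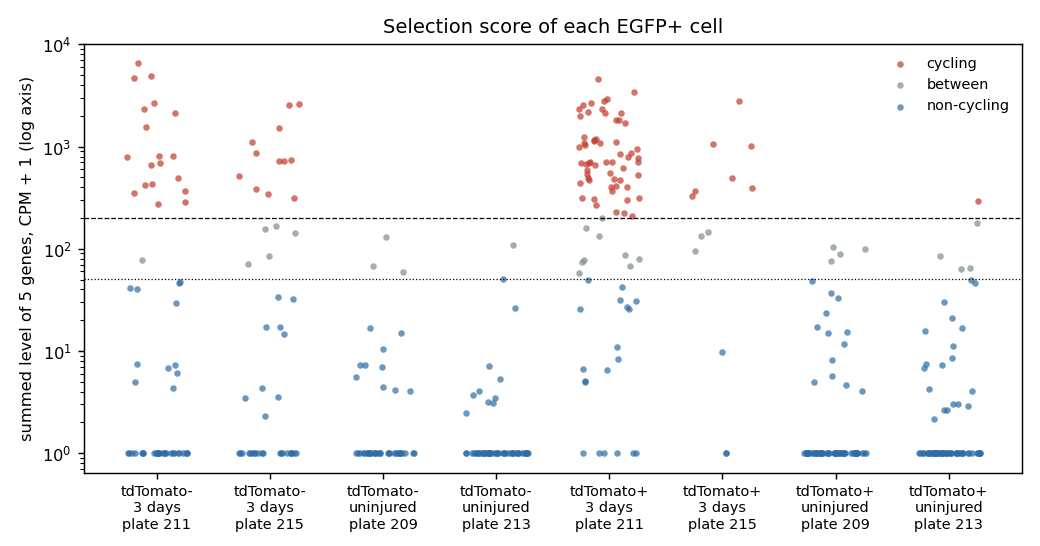
Summed CPM of Mki67, Top2a, Ccnb1, Cdk1 and Birc5 plus 1 in each EGFP+ cell with at least 20000 counts (vertical log axis), by group and plate; each point is a cell, the dashed line marks 200 CPM and the dotted line 50 CPM. Cycling cells (red) are 31 of the tdTomato- cells after injury (29.8%) and 66 of the 100 tdTomato+ cells, and in the uninjured groups 1 cell lies above the dashed line.

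Cycling cells made up 29.8% of the tdTomato- cells after injury (31 cells; 95% exact binomial interval 21.2 to 39.6%). The share was 32.8% on plate 211 (21.01 to 46.3%) and 26.1% on plate 215 (14.3 to 41.1%), and the intervals overlap widely. All intervals here cover counting error only, and reads amplified by PCR are not independent molecules. In the tdTomato+ cells of the same lesions 66 of 100 were cycling (55.8 to 75.2%), 59 of 87 on plate 211 and 7 of 13 on plate 215. Each sort is 1 sample, so the intervals do not test the difference between sorts. In uninjured cords 0 of 100 tdTomato- cells were cycling, which allows a share of up to 3.00% at a limit of 3 cells (exact binomial upper bound 3.62%), and 1 tdTomato+ cell was (0.690%). Uninjured cells lay on other plates, 209 and 213, so plate and injury cannot be told apart.

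The 2 classes differed little in depth. On plate 211 the median total was 178995 counts in cycling and 187834 in non-cycling cells, and on plate 215 it was 331273 and 295729. After thinning each cell to 20000 counts, the median number of genes detected was 4810 against 4455 on plate 211 and 5397 against 4896 on plate 215. Spike-in RNA was counted on plate 211 only, where the median was 796 counts per spike-in count in cycling cells (244 to 4913) and 577 in non-cycling cells (219 to 2517), a ratio of 1.38 with overlapping ranges. Pdgfrb, the receptor gene behind the sort, had counts in all 98 cells of the 2 classes, at a median of 2166 CPM in cycling cells (58.8 to 6422) and 2654 CPM in non-cycling cells (188 to 8910). Slc1a3, the GLAST gene, was at 9.41 and 12.02 CPM in the summed classes. Among markers of other cell types, the sum of 10 immune markers had a median of 12.8 CPM in cycling and 9.51 CPM in non-cycling cells, and that of 6 astrocyte markers 4.12 and 2.25 CPM. The 5 neuron markers summed to a median of 435 and 60.6 CPM, but the neuronal genes Rbfox3 and Syt1 were under 1 CPM in both summed classes and Tubb3, a tubulin gene, made up nearly all of it, at 612 and 383 CPM in the summed classes. The 5 Schwann cell markers summed to a median of 98.05 and 41.7 CPM, nearly all from Pmp22 (159 and 334 CPM in the summed classes). The Schwann sum reached 1000 CPM in 1 cycling and 9 non-cycling cells (highest 1482 and 7494 CPM) and the neuron sum in 8 and 8 (highest 3612 and 3086 CPM). The 7 oligodendrocyte markers summed to 44.7 and 58.3 CPM, with Olig1 at 0. The 8 endothelial markers summed to a median of 737 CPM in cycling cells (12.5 to 4500) and 1079 CPM in non-cycling cells (16.7 to 15276), and reached 1000 CPM in 14 of 31 and 36 of 67 cells.

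Cells with Kcnj8 and cells with Col1a1 were both among the cycling cells. These levels were read 3 days after injury and do not give the origin of a cell. A cell was said to carry Kcnj8 or Col1a1 at 50 CPM or more, which is 1 count at the lowest depth allowed. Of the 31 cycling cells, 15 carried Kcnj8 only, 11 Col1a1 only, 5 both and 0 neither. Of the 67 non-cycling cells, 45 carried Kcnj8 only, 14 Col1a1 only, 5 both and 3 neither. Kcnj8-only cells were therefore 48.4% of the cycling (30.2 to 66.9%) and 67.2% of the non-cycling cells. Col1a1-only cells were 35.5% of the cycling (19.2 to 54.6%) and 20.9% of the non-cycling cells. Read the other way, 15 of 63 Kcnj8-only cells were cycling (23.8%, 13.98 to 36.2%), against 11 of 27 Col1a1-only cells (40.7%, 22.4 to 61.2%), with overlapping intervals. On plate 211 the shares were 27.5% of 40 Kcnj8-only and 35.7% of 14 Col1a1-only cells, and on plate 215 they were 17.4% of 23 and 46.2% of 13. The share of cycling cells was thus higher among Col1a1-only cells on each plate, but over few cells, and this difference was not tested. In the tdTomato+ cells after injury, 61 of 66 cycling cells carried Col1a1 only and 2 carried Kcnj8 only. Kcnj8-only cells were 15 of 31 cycling cells in the tdTomato- sort (48.4%, 30.2 to 66.9%) and 2 of 66 in the tdTomato+ sort (3.03%, 0.369 to 10.5%). By plate they were 11 of 19 and 2 of 59 on plate 211, and 4 of 12 and 0 of 7 on plate 215. Kcnj8-only cells were also few among non-cycling tdTomato+ cells, 3 of 22 (13.6%), against 45 of 67 non-cycling tdTomato- cells. The contrast among cycling cells therefore does not say how often Kcnj8-only cells cycled in each sort. The difference between the sorts was not tested.

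The 11 cells that carried both genes were mostly cells with high Kcnj8 and little Col1a1, 1 of them between the limits of the cycling score. In the 5 cycling ones, Kcnj8 stood at 1231, 1877, 1006, 668 and 51.1 CPM and Col1a1 at 83.5, 106.1, 76.9, 63.4 and 51.1 CPM. The last, on plate 215, had equal and low levels of the genes, close to the limit for each. In the 5 non-cycling ones, all on plate 215, Kcnj8 was 1171, 90.3, 1691, 3196 and 4769 CPM and Col1a1 144.3, 1994, 123.9, 809 and 97.9 CPM. At 200 CPM for each gene, 0 cycling and 1.49% of non-cycling cells carried both, so no cycling cell held that much of both genes. In contrast, when any count was taken as carrying, 41.9% of the cycling and 53.7% of the non-cycling cells carried both.

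**Figure D2:**
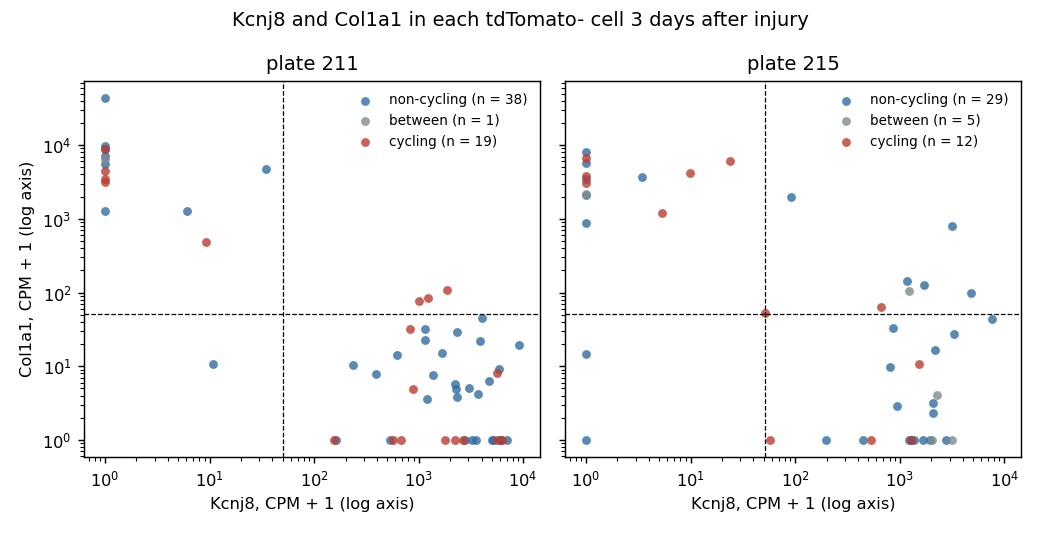
Kcnj8 against Col1a1 in each tdTomato- cell after injury, CPM plus 1 on log axes, by plate; red points are cycling, blue non-cycling and grey between, and dashed lines mark 50 CPM. Cycling cells lie in both arms, 15 with Kcnj8 only and 11 with Col1a1 only, and no cycling cell has both genes at 200 CPM or more.

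S phase and mitosis were both represented. In each cell the CPM of 55 genes of DNA replication and G1/S control, and of 44 genes of mitosis, none of them a selection gene, were summed. The S sum had a median of 6562 CPM in cycling cells (2467 to 20404) and 1378 CPM in non-cycling cells (583 to 6355), and 16 of 31 cycling cells exceeded the highest non-cycling cell. The mitosis sum had a median of 4225 CPM in cycling cells (490 to 19865) and 261 CPM in non-cycling cells (23.8 to 928), and 29 of 31 exceeded the highest non-cycling cell. Among cycling cells the S sum was the higher in 16 cells and the mitosis sum in 15, and their ratio, mitosis over S, ran from 0.0394 to 5.05. Of the 6 cells between the limits, 3 lay above every non-cycling cell in the S sum and 1 did in the mitosis sum. The S sum reached 1000 CPM in 54 of 67 non-cycling cells and in all 31 cycling cells, and the mitosis sum in 0 and 29. The selection genes belong to late S phase through mitosis, so cells early in S phase may have been classed as non-cycling. Kcnj8-only and Col1a1-only cycling cells were alike in these sums, with medians of 6562 and 5666 CPM for S and 5565 and 4660 CPM for mitosis.

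**Figure D3:**
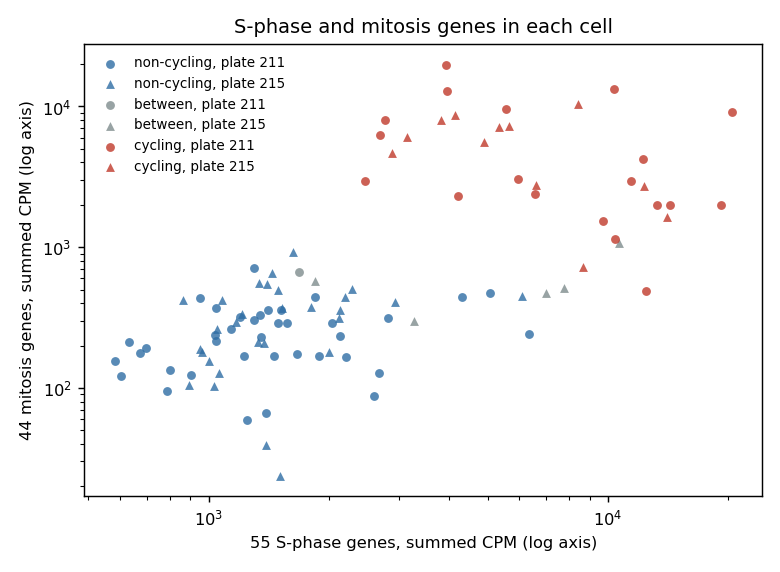
Summed CPM of 55 S-phase genes (horizontal log axis) against 44 mitosis genes (vertical log axis) in each tdTomato- cell after injury; colours give the class and symbols the plate. Cycling cells spread from high S with low mitosis sums to the reverse, and 29 of 31 lie above the highest non-cycling mitosis sum of 928 CPM.

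Counts were then summed over the cells of each class and compared as differences of log2(CPM + 1), cycling minus non-cycling, which understate the difference of low genes. A gene was called higher or lower at a difference of 1 or more (a 2-fold change in CPM + 1) in the sum and on each plate, among genes at 10 CPM or more in either class. Of 10537 genes, 503 were called higher (4.77%) and 661 lower (6.27%), and the median over all of them was -0.001. Nearly all genes at the top of the higher list serve division. The 10 leading ones were Plk1 (a mitotic kinase), Pimreg, Pbk, Aurkb (the kinase of the chromosomal passenger complex), Hmmr (a spindle protein), Ckap2, Kif2c, Ube2c, Cenpf and Rrm2 (a subunit of ribonucleotide reductase). The 10 highest outside the cell cycle lists were Pimreg, Pbk, Cdca5, Diaph3, Ankle1, Kif18b, Arhgef39, Iqgap3, Dlgap5 and Cip2a, most of them also genes of mitosis. The 10 lowest were Pi16, Clec3b, Crispld2, Slco1c1, Col14a1, Slc38a3, Dpp4, Spock2, Slfn5 and Slc22a8, a mixture of fibroblast genes and of transporters and other genes found in capillary cells.

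Plk1 ranged from 0 to 1466 CPM in cycling cells with a median of 131.4, and from 0 to 14.04 CPM in non-cycling cells, where 3 of 67 had a count. The summed level was 342 CPM (95% Poisson interval 329 to 355) against 0.366 CPM (0.134 to 0.797), a difference of 7.97. The classes overlapped, since 8 of 31 cycling cells had no Plk1 count. Hmmr had counts in 25 cycling cells, with a median of 98.8 CPM, and in 1 non-cycling cell. The replication helicase gene Mcm5 had counts in all 31 cycling cells (63.7 to 1520 CPM, median 336) but also in 20 non-cycling cells, up to 751 CPM, with summed levels of 422 and 33.97 CPM. Rrm2 had a median of 343 CPM in cycling cells, with counts in 27 of 31, and had counts in 10 of 67 non-cycling cells, up to 124.6 CPM. Pclaf, a PCNA-binding factor, had counts in 30 of 31 cycling and 6 of 67 non-cycling cells. Cenpf, a kinetochore gene, had counts in 26 cycling and 7 non-cycling cells. Few non-cycling cells thus had counts of Plk1, Hmmr, Cenpf, Pclaf or Rrm2, whereas Mcm5 was present in more of them.

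The promoters of leading genes of each phase are printed so that the words known from mitosis and S-phase promoters can be seen where they occur. They were taken from RefSeq (GRCm38.p6), 300 bases each on the strand of the gene, from 250 before to 50 from the annotated start. These are the 2 genes with the largest called difference among the mitosis lists and among the S lists that have an entry. Capitals mark TTTGAA (the cell cycle homology region, CHR), CCAAT (the box bound by NF-Y) and an E2F word (TTTCCCGC, TTTCGCGC, TTTGCCGC or TTTGGCGC), each searched on both strands, so that CCAAT on the other strand reads ATTGG. No marked words overlap in these sequences. The windows are chr7:122159185-122159484 (+) for Plk1, chr11:40733388-40733687 (-) for Hmmr, chr12:24708004-24708303 (+) for Rrm2 and chr9:65890073-65890372 (+) for Pclaf.
Plk1: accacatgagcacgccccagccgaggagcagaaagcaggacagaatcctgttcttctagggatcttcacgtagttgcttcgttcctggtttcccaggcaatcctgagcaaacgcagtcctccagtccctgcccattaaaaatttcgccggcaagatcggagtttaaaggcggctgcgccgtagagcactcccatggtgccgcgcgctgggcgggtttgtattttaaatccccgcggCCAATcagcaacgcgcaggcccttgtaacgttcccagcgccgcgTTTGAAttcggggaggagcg
Hmmr: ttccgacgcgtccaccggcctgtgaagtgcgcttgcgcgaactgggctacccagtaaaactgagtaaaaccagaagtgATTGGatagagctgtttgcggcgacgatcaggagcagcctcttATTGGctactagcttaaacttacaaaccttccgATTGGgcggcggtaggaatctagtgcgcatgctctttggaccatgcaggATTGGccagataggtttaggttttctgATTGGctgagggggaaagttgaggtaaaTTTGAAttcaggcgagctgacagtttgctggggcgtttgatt
Rrm2: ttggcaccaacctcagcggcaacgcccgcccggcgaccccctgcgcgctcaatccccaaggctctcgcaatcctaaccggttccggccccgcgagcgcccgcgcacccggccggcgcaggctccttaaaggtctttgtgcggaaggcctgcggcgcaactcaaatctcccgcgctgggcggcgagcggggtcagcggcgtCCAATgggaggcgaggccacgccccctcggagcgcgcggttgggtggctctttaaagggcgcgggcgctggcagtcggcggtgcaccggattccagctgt
Pclaf: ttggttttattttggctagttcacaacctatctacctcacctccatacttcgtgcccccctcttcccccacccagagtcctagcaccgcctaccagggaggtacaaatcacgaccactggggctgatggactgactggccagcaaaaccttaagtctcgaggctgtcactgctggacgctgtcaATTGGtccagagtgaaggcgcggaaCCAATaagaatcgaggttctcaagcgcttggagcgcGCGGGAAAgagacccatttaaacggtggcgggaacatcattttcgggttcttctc
Plk1 and Hmmr each held 1 CHR, beginning 30 and 8 bases after the start, and 1 and 5 CCAAT words. Rrm2 held 1 CCAAT word, and Pclaf held 2 CCAAT words and 1 E2F word, beginning 5 bases before the start. Over all 32851 promoters of the table, 17.9% held the CHR word, 37.4% CCAAT and 2.26% an E2F word. Of called members with an entry, CHR was in 8 of 9 cytokinesis genes, 11 of 15 spindle genes, 8 of 12 mitotic kinase genes, 7 of 14 kinetochore genes and 3 of 20 replication genes. CHR was also in 6 of 10 condensation genes, 1 of 8 nucleotide supply genes and 1 of 11 E2F target and G1/S genes. The E2F words were in 10 of 20 replication genes, 4 of 11 E2F target and G1/S genes and 0 of 8 nucleotide supply genes. In the mitotic lists they were in 4 of 10 condensation, 2 of 15 spindle, 1 of 14 kinetochore, 1 of 9 cytokinesis and 0 of 12 mitotic kinase genes. A match is a description of these letters, not a site of binding.

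The cell cycle lists were called higher almost throughout, against the 4.77% of all genes. Of 25 genes of origin licensing and the replication fork, 24 were called higher, with a median difference of 2.57, and the exception, Clspn, differed by 3.90 on plate 211 but 0.36 on plate 215. Among them Mcm3 stood at 347 CPM in cycling and 41.4 CPM in non-cycling cells, and Pcna, the sliding clamp, at 318 and 87.6 CPM. In nucleotide supply 9 of 12 genes were called higher (median 2.16), led by Rrm2 and Tk1 (thymidine kinase, 192 against 6.34 CPM). Of the 18 E2F targets and G1/S regulators, 16 were called higher (median 3.15), among them Ccne1 and E2f8, and E2f1 and Chaf1a were not. In chromosome condensation and chromatin, 12 of 14 were called higher (median 2.78), with H2az1, a histone variant gene, at 606 against 138.8 CPM.

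The mitotic lists had larger differences. All 15 kinetochore and checkpoint genes were called higher (median 5.12), as were 16 of 19 mitotic kinases and regulators of the APC/C (median 4.48), 18 of 21 spindle and motor genes (median 4.70) and all 10 cytokinesis genes (median 4.91). The exceptions include Pttg1, which encodes securin and stood at 53.03 CPM in cycling and 75.7 CPM in non-cycling cells, with counts in 61 of 67 non-cycling cells. Fzr1, an activator of the APC/C in G1, had opposite differences on the plates, 1.71 and -2.11. Tubb5, a tubulin gene expressed in every cell of both classes, was at 2475 and 1364 CPM, a difference of 0.86.

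Few genes that hold cells out of the cycle were called. Of 18 tested CDK inhibitor and quiescence genes, 2 were called lower in cycling cells, beside 6.27% of all genes, Klf2 (4.64 against 27.1 CPM) and Klf4 (27.2 against 109.2 CPM), both transcription factor genes tied to quiescence, and the median of the tested genes was -0.66. Cdkn1b, which encodes p27, was at 36.3 and 46.2 CPM and Cdkn1a, which encodes p21, at 78.8 and 112.96 CPM, and neither was called. Among G1 cyclins and growth regulators (median 0.54) only Srm was called higher, with 40% of its counts in 1 cell, and cyclin D1 (Ccnd1) was at 112.9 and 79.7 CPM. Among mitogen receptors (median -0.52) Insr, the insulin receptor gene, was called lower, at 20.04 against 49.95 CPM, and Pdgfrb differed by -0.15. The immediate early gene Jun was called lower (189 against 469 CPM) within a list whose median was -0.64. Of the 16 fibrotic matrix genes 1 was called, Tnc, which encodes tenascin-C, at 1031 against 362 CPM. It had counts in 24 of 31 cycling cells (median 469 CPM, highest 6268) and in 33 of 67 non-cycling cells (median 0 CPM, highest 3841). Srm, Insr, Jun and Tnc were each the only called gene of their list, of 13, 16, 15 and 16 tested. Over all genes 4.77% were called higher and 6.27% lower, so single calls of this kind are near that share.

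Since the 2 classes held different shares of Kcnj8-only and Col1a1-only cells, the comparison was repeated within each kind, so that both sides carry the same of the 2 markers. Kcnj8-only cells numbered 15 cycling (11 and 4 on plates 211 and 215) and 45 non-cycling (29 and 16). Col1a1-only cells numbered 11 cycling (5 and 6) and 14 non-cycling (8 and 6). In Kcnj8-only cells 558 of 10300 genes were called higher (5.42%) and 713 lower (6.92%). In Col1a1-only cells 1178 of 10233 were called higher (11.5%) and 1110 lower (10.8%), with a median over all genes of 0.11. The cell counts differ, so the numbers of calls are not compared. Plk1 differed by 8.24 and 7.89 in the 2 kinds, and the kinetochore list by a median of 5.33 and 5.81.

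**Figure D4:**
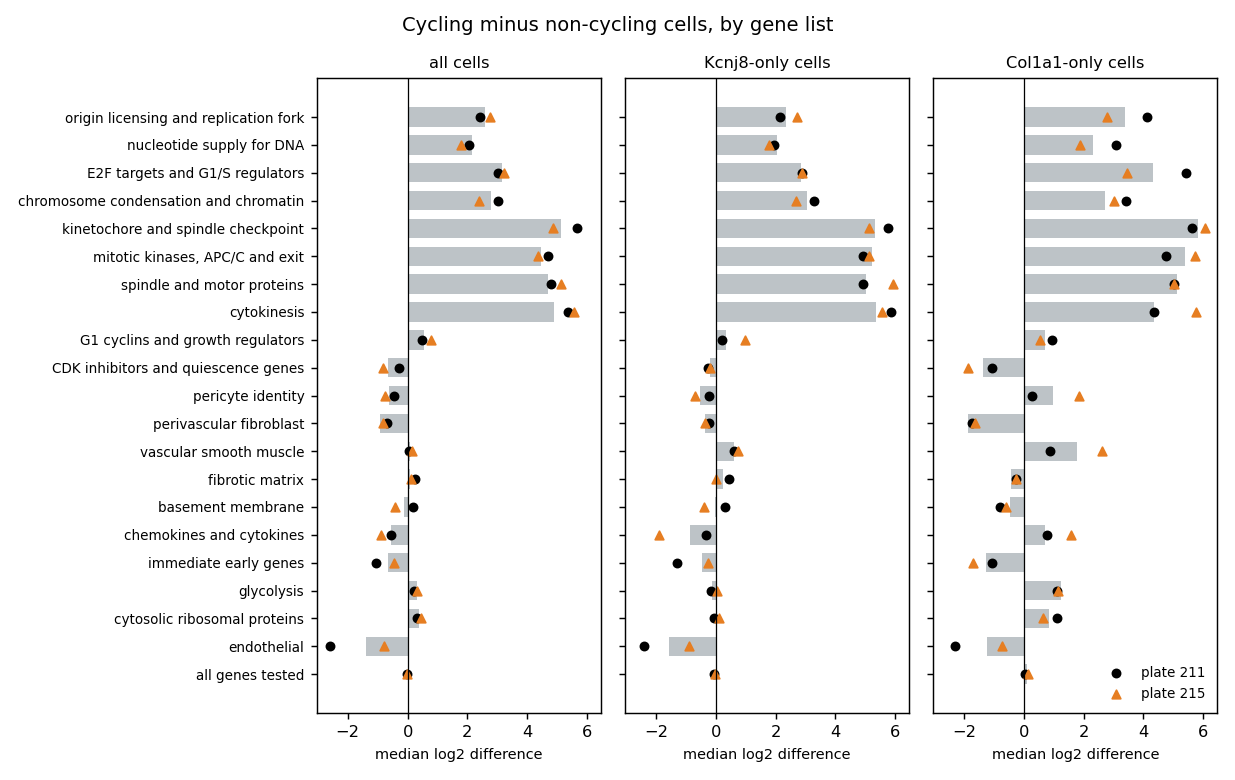
Median difference of log2(CPM + 1), cycling minus non-cycling, for gene lists (rows) in all cells, Kcnj8-only cells and Col1a1-only cells; bars give the summed cells, black points plate 211 and orange triangles plate 215. Cell cycle lists lie far to the right in all 3 panels, and the glycolysis and vascular smooth muscle lists reach above 1 in Col1a1-only cells and not in Kcnj8-only cells.

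In Kcnj8-only cells, pericyte markers were present in both classes, and 2 of them were called lower in cycling cells. Kcnj8 ranged from 57.1 to 6297 CPM in cycling cells (median 1272) and from 162 to 9187 CPM in non-cycling cells (median 2171), with summed levels of 1452 and 2356 CPM. Vtn, the vitronectin gene, was at 3952 and 8003 CPM and Rgs5, a regulator of G protein signalling, at 3075 and 4970 CPM, and neither passed the limit on both plates. The genes called lower were Atp13a5, a transporter ATPase gene of pericytes in the central nervous system (118.7 against 427 CPM), and Higd1b (201 against 451 CPM), 2 of the 18 genes of the list, whose median was -0.52, beside 6.92% of all genes called lower. Atp13a5 reached 50 CPM in 7 of 15 cycling and 32 of 45 non-cycling cells, and its ranges overlapped. Cspg4, which encodes NG2, stood at 866 and 611 CPM and Pdgfrb at 3034 and 3366 CPM.

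The smooth muscle genes Acta2 and Tagln were called higher. Acta2, the smooth muscle actin gene, had a median of 2122 CPM in cycling cells (0 to 9608) and 81.42 CPM in non-cycling cells (0 to 8634), and reached 50 CPM in 13 of 15 and 24 of 45 cells. The summed levels were 2576 and 1035 CPM, a difference of 1.31 (1.19 and 2.47 on the plates). Tagln was at 279 and 80.5 CPM, and the 8 tested of 12 smooth muscle genes had a median of 0.60, with 2 called higher (5.42% of all genes were) and 0 lower. Myl9 stood at 1314 and 1642 CPM, Des at 387 and 430 CPM and Tpm2 at 704 and 364 CPM, and none of them was called. Myh11, a myosin of mature smooth muscle, was at 62.7 and 43.3 CPM. Tnc was called higher at 758 against 372 CPM, and reached 50 CPM in 9 of 15 and 15 of 45 cells. Atp13a5 and Tnc were seldom at 50 CPM in the same non-cycling cell: 30 of 45 had Atp13a5 alone, 13 Tnc alone and 2 both. In cycling cells 4 of 15 had Atp13a5 alone, 6 Tnc alone, 3 both and 2 neither.

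Among secreted factors, 3 were called lower in cycling Kcnj8-only cells. Cxcl12, a chemokine gene, had a median of 0 CPM in cycling cells (highest 134.6) and 16.2 CPM in non-cycling cells (highest 1649), with summed levels of 23.6 and 261 CPM. Vegfa, the angiogenic growth factor gene, was at 1.92 and 36.9 CPM and Csf1, a macrophage growth factor gene, at 3.61 and 35.1 CPM. Counts of Cxcl12 were found in 5 of 15 cycling and 30 of 45 non-cycling cells, of Vegfa in 3 and 10 and of Csf1 in 7 and 25. The shares of cells with Vegfa or Csf1 were thus alike, and the summed levels differed. Cxcl12, Vegfa and Csf1, 3 of the 14 tested chemokine and cytokine genes, were called lower, beside 6.92% of all genes, and 0 were called higher. The median was -0.85, with -0.34 on plate 211 and -1.90 on plate 215. Ccl2 was at 444 and 635 CPM and was not called. Spp1, the osteopontin gene, stood at 416 and 2702 CPM, but 1 non-cycling cell was at 104880 CPM. The glucose transporter gene Slc2a1 was called lower (332 against 981 CPM), Klf2 and Klf4 were called lower, and the inhibitor genes Cdkn2c and Cdkn2d were called higher. Cdkn2d, which encodes p19 INK4d, had a median of 132.4 CPM in cycling and 39.5 CPM in non-cycling cells (summed 214 and 53.3 CPM).

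The 10 genes lowest in cycling Kcnj8-only cells were Nebl, Spock2, Slc22a8, Slco1c1, Slc52a3, Slc38a3, Slc38a5, Slfn5, Tradd and Cxcl12. Several are known from brain capillaries, such as the thyroid hormone transporter gene Slco1c1 and the anion transporter gene Slc22a8. Of these 10 genes only Slco1c1 was counted per cell beside an endothelial marker. Slco1c1 was at 16.8 and 317 CPM in the 2 classes, and all 15 non-cycling cells with 50 CPM or more of it also had 50 CPM or more of Cldn5, an endothelial tight junction gene. The 8 endothelial markers had medians of 1261 CPM in cycling cells (276 to 4500) and 1387 CPM in non-cycling cells (176 to 15276), and Cldn5 itself was called lower (376 against 1899 CPM). The comparison was therefore repeated without cells in which these markers summed to 1000 CPM or more, which left 5 cycling and 14 non-cycling cells, 1 and 3 of them on plate 215, a choice made after seeing the data. Slco1c1 then stood at 0 and 1.14 CPM, Slc38a3 at 0 and 0, Nebl at 1.03 and 0, Spock2 at 2.06 and 6.86 and Cxcl12 at 2.06 and 11.8 CPM, and none of these was called. The part of endothelial RNA or adhering cells in these differences was not tested beyond this.

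Other differences stood without those cells. Slfn5 (4.12 against 39.3 CPM), Tradd (12.4 against 66.3 CPM), Vegfa (6.18 against 125.5 CPM), Csf1 (7.21 against 28.6 CPM), Slc2a1 (66.99 against 257 CPM), Klf4 (3.09 against 19.1 CPM), Higd1b (76.3 against 247 CPM) and Tagln (612 against 94.6 CPM) were again called in the same direction. Atp13a5 was at 137.1 and 263 CPM and Acta2 at 2651 and 1119 CPM, and neither was called. Klf2 (2.06 against 4.96 CPM) and Cdkn2d (113.4 against 53.8 CPM) were likewise no longer called. Tnc was at 886 and 998 CPM, so its difference was not found in these cells. Kcnj8 was at 1233 and 1923 CPM and Rgs5 at 3309 and 3333 CPM.

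In uninjured cords, 72 tdTomato- cells classed as non-cycling carried Kcnj8 only, and Plk1 stood at 0.0446 CPM in them. Atp13a5 stood there at 1181 CPM, above both classes after injury, and Slc2a1 at 1670 CPM. Acta2 was at 168 CPM and Tnc at 0.758 CPM, below both classes. For Atp13a5, Acta2 and Tnc, cycling cells thus lay farther from the uninjured level than non-cycling cells did, but plate and injury cannot be told apart. Without the endothelial-marker cells Tnc turned, with cycling cells at 886 and non-cycling at 998 CPM, and Atp13a5 and Acta2 were not called. Vegfa was at 1.07 CPM, close to the cycling class, and Kcnj8 at 2097 CPM, close to the non-cycling class.

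Col1a1-only cells showed the clearest difference outside the cell cycle. Pi16, a marker of adventitial fibroblasts, ranged from 0 to 90.6 CPM in the 11 cycling cells (median 0) and from 0 to 22611 CPM in the 14 non-cycling cells (median 858). It reached 50 CPM in 1 of 11 and 10 of 14 cells, and the summed levels were 5.29 CPM (2.89 to 8.88) and 4170 CPM (4100 to 4240), a difference of -9.37 (-8.71 and -10.86 on the plates). Clec3b, which encodes tetranectin, was at 1.51 and 730 CPM, and Myoc, the myocilin gene, had no count in the 11 cycling cells. Myoc stood at 431 CPM in the summed non-cycling cells, where 8 of 14 had a count and 1 cell held 43.8% of its counts. Angptl1, Fmo2, C3 (complement component 3), Serpina3n, Ly6c1, Ebf2 and Cfb (complement factor B) completed the 10 lowest genes, a ranking of this kind of cell that was added after the values were seen. C3 likewise had no count in cycling cells, against 203 CPM, with counts in 6 of 14 non-cycling cells and 43.1% of them in 1 cell. Cfb was at 4.16 against 546 CPM, with counts in 4 of 11 and 12 of 14 cells. The Schwann cell marker Pmp22 moved with them and was called lower, at 372 against 1297 CPM, and its part in these differences was not tested.

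Of the 12 perivascular fibroblast genes 7 were called lower (median -1.88), against 10.8% of all genes. They were Pi16, Clec3b, Dpt, Cygb, Dcn, Mfap5 and Fbln1. Dcn, the decorin gene, ranged from 424 to 4462 CPM in cycling and from 561 to 33157 CPM in non-cycling cells, with summed levels of 1505 and 9297 CPM. Mfap5, a microfibril gene, was at 421 and 1801 CPM and Cygb, the cytoglobin gene, at 67.7 and 683 CPM. The fibrillar collagens were not among the genes called. Col1a1 was at 4435 and 6836 CPM, Col3a1 at 6572 and 12260 CPM and Col1a2 at 3486 and 5615 CPM, and the plates differed in sign for Col1a1 (-0.99 and 0.12). All these cells were selected for Col1a1 at 50 CPM or more.

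**Figure D5:**
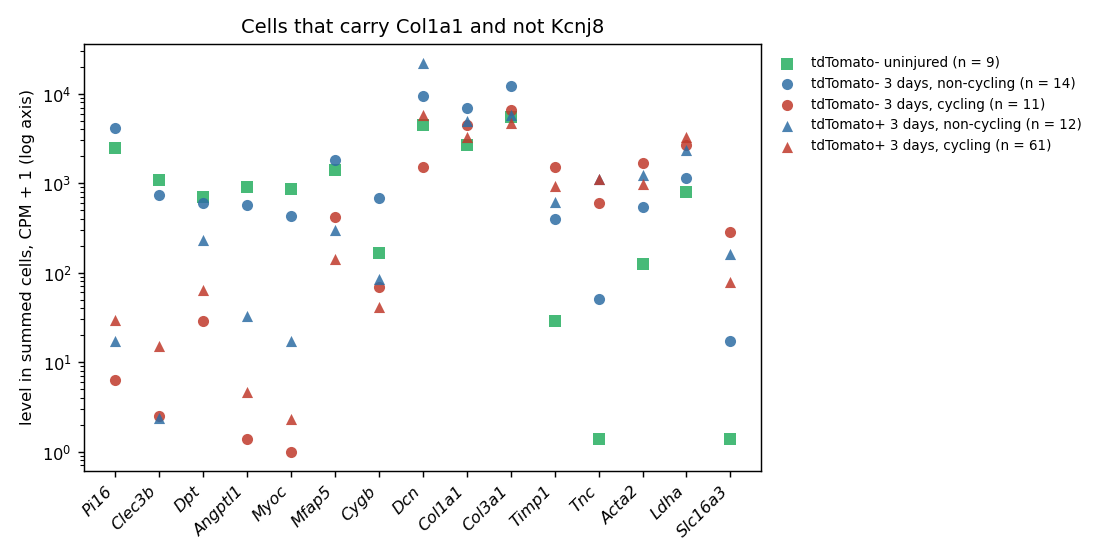
Level of 15 genes in the summed cells that carry Col1a1 and not Kcnj8, CPM plus 1 on a log axis, in uninjured tdTomato- cells (green squares), tdTomato- cells after injury (circles) and tdTomato+ cells after injury (triangles), with cycling cells in red and non-cycling cells in blue. Pi16 is at 4170 CPM in non-cycling tdTomato- cells and at 5.29 CPM in cycling ones, and both tdTomato+ classes lie under 50 CPM.

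Timp1, Tnc, Ccl2 and Angpt2 were called higher in cycling Col1a1-only cells. Timp1, an inhibitor of matrix metalloproteinases, had a median of 1194 CPM in cycling cells (562 to 4618) and 432 CPM in non-cycling cells (23.9 to 1294). Tnc was at 607 and 49.4 CPM, with 50 CPM or more in 7 of 11 and 3 of 14 cells, and of the 10 non-cycling cells with Pi16 at 50 CPM 1 also had Tnc at that level. All 6 cycling cells of plate 215 had Tnc at 50 CPM and 1 of 5 on plate 211 did. Ccl2, a monocyte chemokine gene, was at 248 and 3.64 CPM, and Angpt2, the angiopoietin-2 gene, at 178 and 36.98 CPM. Among the 12 tested chemokine and cytokine genes (median 0.72) Ccl2, Angpt2 and Timp1 were called higher and Csf1 lower. Over all genes 11.5% were called higher and 10.8% lower. Acta2 reached 50 CPM in 9 of 11 and 4 of 14 cells (summed 1659 and 536 CPM) and was not called because the difference was 0.77 on plate 211. Myl9, Tpm2 and Cnn1 were called higher, Cnn1 with 77% of its counts in 1 cell, so that 3 of the 8 tested smooth muscle genes were called (11.5% of all genes were), and the list had a median of 1.77.

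Of 15 glycolysis genes 8 were called higher in cycling Col1a1-only cells, against 11.5% of all genes, and the median was 1.26. Ldha, the lactate dehydrogenase gene, ranged from 947 to 4500 CPM in cycling cells (median 2837) and from 96.3 to 4394 CPM in non-cycling cells (median 826). Slc16a3, a lactate exporter gene, was at 284 and 16.4 CPM, Hk2 (hexokinase 2) at 120.6 and 19.4 CPM and Pkm (pyruvate kinase) at 2282 and 913 CPM. The same list had a median of -0.11 in Kcnj8-only cells, where Ldha stood at 1564 and 1690 CPM. The difference between the 2 kinds of cell was not tested.

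In Col1a1-only cells 6 of the 18 tested CDK inhibitor and quiescence genes were called lower, against 10.8% of all genes, and the median was -1.37. They were Cdkn1c, which encodes p57, Btg2, Gas1, Txnip, Klf4 and Foxo1. Cdkn2d (88.9 against 89.1 CPM), Btg1 (32.5 against 31.5 CPM) and Ccng2 (19.3 against 17.3 CPM) were at like levels in the summed classes. Klf4 was at 69.6 and 311 CPM and Gas1, a growth arrest gene, at 20.8 and 121.3 CPM. Btg2, an antiproliferative gene, ranged from 4.38 to 159 CPM in cycling cells and from 24.3 to 824 CPM in non-cycling cells. Of 15 immediate early genes 6 were called lower (median -1.25), against 10.8% of all genes. Among them were Fos (919 against 2080 CPM), Jun and Fosb, and Fosl1 was called higher with 57% of its counts in 1 cell. Of the 13 tested G1 cyclin and growth genes 4 were called higher, against 11.5% of all genes, with a median of 0.73. They were Cdk4 (576 against 244 CPM), Npm1 (nucleophosmin, 1060 against 339 CPM), Nop56 and Srm, Srm with 66% of its counts in 1 cell.

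The pericyte list had a median of 0.98 in Col1a1-only cells, at low levels. Rgs5 stood at 12.9 and 2.12 CPM and Kcnj8 at 2.65 and 2.43 CPM, and S1pr3, called higher, had 70% of its counts in 1 cell. Pdgfrb was at 823 and 359 CPM, higher on plate 215 (1.62) and not on plate 211 (-0.21).

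The tdTomato+ cells of the same lesions held 61 cycling and 12 non-cycling Col1a1-only cells, nearly all on plate 211. There the Pi16 group was low in both classes. Pi16 was at 28.3 CPM in cycling and 16.2 CPM in non-cycling cells, Clec3b at 14.2 and 1.35 CPM and Myoc at 1.33 and 16.2 CPM. The fibroblast list had a median of -0.60 between these classes, that of glycolysis 0.11 and that of CDK inhibitors -0.90. Tnc was at 1108 and 1104 CPM and Timp1 at 938 and 614 CPM. In the 9 uninjured tdTomato- cells that carried Col1a1 only, Pi16 stood at 2489 CPM, Clec3b at 1093 CPM, Myoc at 870 CPM, Tnc at 0.391 CPM and Ldha at 804 CPM. On these genes the non-cycling tdTomato- cells after injury lay nearer to these uninjured cells than the cycling cells and both tdTomato+ classes did. Pi16, Clec3b and Myoc were taken from the genes lowest in cycling cells, so this holds in part by choice. For Col1a1 the cycling cells were nearer (uninjured 2648, non-cycling 6836, cycling 4435 CPM). Col3a1 went the same way (5459, 12260 and 6572 CPM). The 22 uninjured tdTomato+ cells stood at 626 CPM for Pi16, 840 for Clec3b and 547 for Myoc. This is a side-by-side reading over few cells with no test.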

How the data were processed

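Cells were sorted into plates and sequenced with Smart-seq3. The deposited table holds whole-number counts per gene and cell made by the authors; the submitters' processing notes name mm10, and the aligner and whether reads or molecules were counted are not given in the sources used here. Of its columns, 1465 that no cell label matched were not used, and no 2 cell columns used were identical. The 92 spike-in rows, 0.0314% of the counts and counted on plate 211 only, were left out of all totals. Plate 211 used another annotation, so 166 renamed symbols were joined through RefSeq synonyms and 11485 genes not listed with counts on both plates were left out. Doublets were not called here; the study gated singlets. The labels name no animal, so no differential test was run. The members and gene lists were chosen with earlier results of these data known.

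Counts were summed per class and plate (8184551 counts in cycling and 16395405 in non-cycling cells), expressed as CPM and compared with a pseudocount of 1 CPM. Python 3.11.15 with numpy 2.4.6, pandas 2.3.3 and scipy 1.17.1 was used, with exact binomial and Poisson intervals at 95%. Scale factors of edgeR 4.0.16 (TMM) and DESeq2 1.42.0 in R 4.3.3, other score limits, filters, pseudocounts and single plates were alternatives. The summing and calling steps were tested on simulated data. Genes were named from the lists, and as the 10 with the largest difference in each direction and the 10 highest outside the cell cycle lists, given 50 CPM in the higher class, a count in 20% of its cells, the same direction on both plates and at most 50% of the counts in 1 cell; the ranking in Col1a1-only cells and the pairs of genes counted per cell were added after the values were seen.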

Additional observations from a re-analysis of the deposited data

Results flagged for a closer look

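For 3 gene lists the median difference of cycling and non-cycling cells had opposite signs in the 2 kinds of cell, and the difference between the kinds was not tested. The pericyte list had a median of -0.52 in Kcnj8-only cells and 0.98 in Col1a1-only cells, where most of its genes were low. Without the endothelial-marker cells the Kcnj8-only pericyte median was -0.46. It was 0.03 on plate 211 and -3.08 on plate 215, so its sign then differed between the plates. The fibrotic matrix list had a median of 0.26 in Kcnj8-only and -0.44 in Col1a1-only cells, with Tnc called higher in each. Without the endothelial-marker cells the Kcnj8-only matrix median was -0.11, so the signs were no longer opposite, and Tnc was at 886 CPM in cycling and 998 CPM in non-cycling cells and not called. The chemokine and cytokine list had a median of -0.85 in Kcnj8-only cells, where Cxcl12, Vegfa and Csf1 were called lower, and 0.72 in Col1a1-only cells, where Ccl2, Timp1 and Angpt2 were called higher. Vegfa had counts in only 3 of 15 cycling and 10 of 45 non-cycling Kcnj8-only cells.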

How the results depend on the processing

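No paired analysis was possible because no label ties a cell to an animal and no test was run. Single plates gave 12 to 19 cycling cells, and 0 to 17.2% of non-cycling cells with both markers. With any count as carrying, 41.9% of cycling and 53.7% of non-cycling cells had both markers and 26.9% of non-cycling cells Kcnj8 only; at 200 CPM, 0% and 1.49% had both. Genes called higher and lower numbered 1102 to 1370 and 1327 to 2001 on single plates, where a call needs 1 plate only, 325 and 292 with a pseudocount of 10, 260 and 221 with a 50 CPM filter, and 1047 lower without a filter. In Kcnj8-only cells they were 1371 to 1886 and 1628 to 2361 on single plates, 349 and 315 with the pseudocount, 313 and 204 with the stricter filter, and 1165 lower without one; leaving out cells with 1000 CPM of endothelial markers gave 1186 lower. In Col1a1-only cells, which gave 1178 and 1110, they were 2183 to 3027 and 2115 to 2668 on single plates, 694 and 634, and 609 and 547. The licensing median was 2.28 with cycling set at 400 CPM, 1.99 with 3 selection genes, 2.84 with a thinned score or the mean of cells' CPM, 1.98 with the pseudocount of 10, 3.42 without the endothelial-marker cells and 3.38 in Col1a1-only cells. The kinetochore median was 3.23 with that pseudocount and 5.81 in Col1a1-only cells. The pericyte median was -1.004 without the endothelial-marker cells and 0.98 in Col1a1-only cells. The fibroblast median was -1.02 at 400 CPM and with the thinned score, -1.10 with 3 selection genes, -0.82 to -0.70 on single plates, -0.72 with the mean of cells' CPM, -1.04 without the endothelial-marker cells, and -0.35 and -1.88 in Kcnj8-only and Col1a1-only cells. Signs turned for the Schwann cell list in Col1a1-only cells without a filter (0.0161), for Slco1c1 (0.43), Spock2 (2.64) and Slc22a8 (0.81) of the comparison over all cells in Col1a1-only cells, and for Nebl and Slc38a5 (1.02 each) in Kcnj8-only cells without the endothelial-marker cells. The cause of these changes was not tested. The small medians of the smooth muscle and matrix lists over all cells also turned, to -0.17 and -0.04, without the endothelial-marker cells. Among the named genes 1208 values kept direction and call and 19 lost the call. A group of 31 or fewer cells limits every share to wide intervals.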
